A study of Mus musculus with 20 samples.

Results

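The genes described here carry the symbols Ift, Bbs, Tctn or Ttc followed by a number: the subunits of intraflagellar transport, the Bardet-Biedl syndrome genes, the tectonics and the genes of tetratricopeptide repeat proteins. They were chosen by that symbol alone, with 1 probe set a gene, the one with the highest mean log2 intensity among probe sets that carry a single symbol. The rule found 66 genes of 18193 on the array. By role, 4 of them belong to the IFT-A complex, 15 to IFT-B, 7 to the BBSome, 2 to the chaperonin-like Bardet-Biedl proteins and 3 to the tectonics, which makes 31 genes of ciliary complexes. The other 35 are Ttc genes outside those complexes. A list written by hand gives 5 of them a known or proposed part in cilia or flagella, and others of the 35 may have one too.

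The study followed the mouse testis after birth. Total RNA of the testis was hybridised to 20 single-channel expression arrays, 2 for each of 10 ages: days 0, 3, 6, 8 and 10, and then days 14, 18, 20, 30 and 35 after birth. The labels give no strain, genotype or treatment. They do not say whether the 2 arrays of a day stand for different animals. The p-values therefore cover the spread between these arrays only, which may be technical, and the number of arrays limits the precision.

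Cilia and flagella are built by trains that run along the axoneme. IFT-B, the larger complex, is carried outward by kinesin and bears tubulin and other building blocks, while IFT-A, with a dynein motor, brings the trains back and admits membrane proteins. The BBSome is a coat-like adaptor that rides on these trains and moves membrane proteins, and Bbs10 and Bbs12 help to assemble it. Tectonics sit in the transition zone, the gate at the base of the cilium. In the testis the sperm flagellum is assembled in spermatids, and in mice the loss of several of these subunits in male germ cells leaves sperm without a working tail. Tetratricopeptide repeats are protein-binding modules, so Ttc is a family of symbols and not 1 pathway: Ttc21b and the Ttc26 and Ttc30 genes encode IFT subunits and Ttc8 encodes a BBSome subunit, while others serve mitochondria, RNA decay or chaperones.

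Many ciliary genes carry an X-box in their promoter, a site bound by RFX transcription factors. The promoters of the members were therefore searched for the half-sites GTTNCC and GGNAAC with 2 bases between them, a pattern that reads the same on both strands. No other motif was searched. The window held 250 bases before and 50 after each start site in the RefSeq table for GRCm38.p6, and 56 of the 66 members were in that table. An exact match lay in 4 of the 56 members, or 7.14%, against 143 of all 27025 genes of the table, or 0.529%, and 0.689% of the 13056 tested genes with a promoter. With at most 1 mismatch among the 10 fixed letters, 11 members matched, or 19.6%, against 2.89% of all genes and 3.81% of the tested genes. A match is a run of letters and not a measured binding site. The 8 matches that follow, 1 for each gene, are shown because they lie before the start site of genes whose transcripts change in the results given further on. That choice used those results, so the 8 do not bear on a link between match and change. Capitals mark the 14 matched bases, and each line reads 5′ to 3′ on the strand of the gene.
Ttc30a2: gttggcttGTTGCCATGGGAACaagcacac
Ttc26: ccggcggcGTTGCCGTGGAAACggagctcg
Bbs7: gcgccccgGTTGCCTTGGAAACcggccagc
Ift22: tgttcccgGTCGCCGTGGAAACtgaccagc
Ift57: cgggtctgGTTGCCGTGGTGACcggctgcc
Tctn2: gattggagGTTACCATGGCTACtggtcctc
Ttc29: gcccctctGTTTCCATGGAGACgctttcag
Ttc23l: agtgttccATTCCCATGGCAACgcattgtc

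The first 3 of these were exact and the other 5 had 1 mismatch. In GRCm38.p6 they lie at chr2:75978182-75978211 on the minus strand for Ttc30a2, chr6:38381483-38381512 on the plus strand for Ttc26 and chr3:36613489-36613518 on the minus strand for Bbs7. Those of Ift22 and Ift57 lie at chr5:136908109-136908138 and chr16:49699199-49699228, and those of Tctn2 and Ttc29 at chr5:124598679-124598708 and chr8:78213293-78213322, all on the plus strand. That of Ttc23l lies at chr15:10558687-10558716 on the minus strand. Their matched bases run from -24 to -11 from the start site in Ttc30a2, from -33 to -20 in Ttc26 and in Ift22, and from -121 to -108 in Bbs7. They run from -87 to -74 in Ift57, from -62 to -49 in Tctn2 and from -41 to -28 in Ttc29. In Ttc23l, with 2 listed start sites, they run from -39 to -26 of the nearer one. In Ttc26, Ttc29 and Ttc23l other annotated transcripts start further upstream, so the match lies within the annotated gene. Ift22 had a second match with 1 mismatch, from -63 to -50. The remaining matches were exact in Tctn1 and had 1 mismatch in Bbs1 and Bbs4, and all 3 lie after the start site.

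Intensities are on the linear scale deposited, and differences are on the scale of log2(intensity + 7.83), where 7.83 is the 20th percentile of all values. A difference in log2 units is the later day minus the earlier day, given with its standard error from limma. A gene was tested if, on 2 arrays or more, its intensity was above the 40th percentile of that array, which 65 of the 66 members and 16429 genes in all did. Some members passed only through days on which they were high. Ttc30a2, Ttc25 and Ttc39d passed on 10 arrays, Ttc23l on 6 and Ttc22 on 2, all from day 14 on. With no filter, all 105 called differences of members were kept. Ttc9b did not pass, with intensities of 0.698 to 21.9 over the 20 arrays. A gene was called where the Benjamini-Hochberg adjusted p over all 16429 genes was under 0.05 and the difference was at least 1, that is 2-fold on this scale. The low end of the arrays shifted between days 14 and 18: the 5th percentile of intensity was 3.46 to 5.54 on days 18 to 35 and 0.882 to 1.23 on days 0 to 14. Differences between days 20 and 14 and between days 35 and 0 cross that shift, which bears most on dim probe sets. The 2 arrays of a day correlated with r of 0.952 to 0.986. The array titled day 18 replicate 2 carries day 0 in another label. It correlated with r = 0.969 with the other day 18 array and 0.769 on average with the day 0 arrays, and the counts of called members were the same without it. Day 18 is in none of the comparisons between 2 days given below, so those counts could hardly move and do not test the label.

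Of the 4 successive intervals compared, the one with the most members called was day 20 against day 14. Over the whole course 57 of the 65 tested members changed, where 77.6% of all genes tested did. On day 8 against day 0, only Ttc29 was called higher, where 3.29% of all genes were, and no member was called lower by limma, where 2.77% were. At an unadjusted p under 0.05, 6 members were lower on day 8. Without day 0 replicate 2, 2 members were called higher on day 8. By day 14, 16 members (24.6%) were higher than on day 8, where 5.48% of all genes were, and none was lower by limma, where 2.5% were. At an unadjusted p under 0.05, 5 members were lower on day 14, and without day 14 replicate 1 there was 1 call. Day 20 brought 28 members (43.1%) above their day 14 level, against 18.2% of all genes, and 3 below it (4.62%), against 11.2%. On day 35 against day 20 the shares were near those of all genes, with 6 members higher (9.23%, against 8.5% of all genes) and 4 lower (6.15%, against 7.27%). Over the full span, on day 35 against day 0, 38 members (58.5%) were higher, against 27.3% of all genes, and 9 (13.8%) were lower, against 27.6%.

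Of the 31 complex members limma called none lower in any of the 5 comparisons, although at an unadjusted p under 0.05 there were 3 lower on day 8 against day 0, 13 on day 35 against day 20 and 1 on day 35 against day 0. On day 35, 20 of them (64.5%) were higher than on day 0, with a median difference of 1.81 against -0.03 for all genes tested. Among the 34 tested Ttc genes outside the complexes, 18 (52.9%) were higher and 9 (26.5%) lower on day 35 than on day 0, with a median of 1.13. The difference between the 2 sets was not tested. The median of all genes was itself -0.20 on day 35 against day 20, or -0.08 with a floor at the pooled median. In whole testis, fewer cells of a type and less RNA per cell cannot be told apart, which applies to every difference given here.

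**Figure D1:**
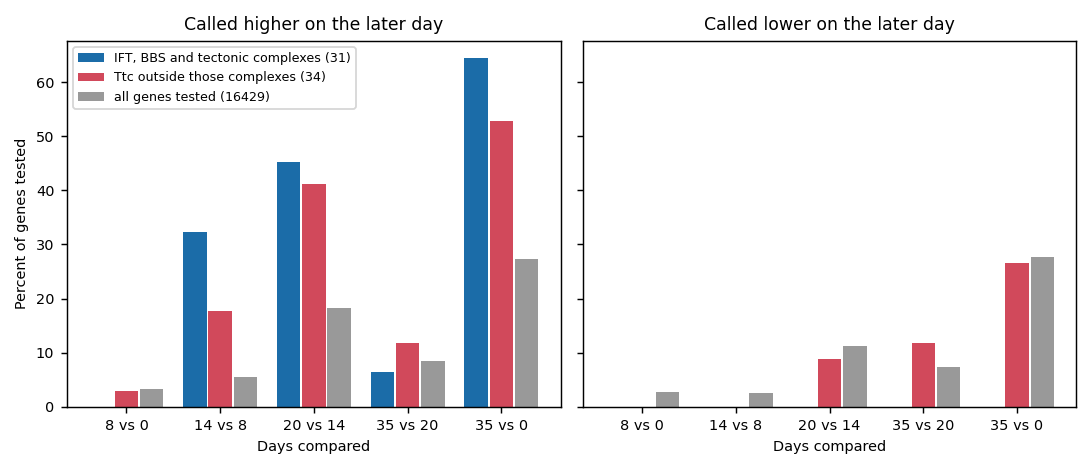
Share of genes called higher (left) and lower (right) on the later day, in percent of the genes tested, for the 31 members of the IFT, BBS and tectonic complexes, the 34 other Ttc genes tested and all 16429 genes tested. On day 20 against day 14 the members called higher make up 45.2% of the complexes and 41.2% of the other Ttc genes, against 18.2% of all genes, and no complex member was called lower in any comparison.

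All 4 IFT-A genes rose, and each was called on day 20 against day 14. Ift140, a core subunit, gave intensities of 283 and 237 on day 0, 287 and 296 on day 3, 316 and 308 on day 6, 288 and 301 on day 8, and 288 and 295 on day 10. It then gave 526 and 415 on day 14, 1546 and 1476 on day 18, 1976 and 1965 on day 20, 1852 and 1903 on day 30, and 1801 and 1840 on day 35. It was flat to day 10, and both day 20 arrays stood above both day 14 arrays, a difference of 2.06 ± 0.10 (limma, adjusted p = 2.94e-12), and the arrays of days 30 and 35 lay close to those of day 20. Ttc21b encodes the IFT-A subunit also called IFT139. Its arrays read 156 and 168 on day 0, 179 and 174 on day 3, 218 and 216 on day 6, 288 and 276 on day 8, and 286 and 279.5 on day 10, followed by 620 and 502 on day 14, 1023 and 1040 on day 18, 1191 and 1225 on day 20, 971 and 962 on day 30, and 862 and 888 on day 35. The day 35 arrays of Ttc21b stood above the day 0 arrays by 2.38 ± 0.09 (adjusted p = 1e-14) but below the day 20 arrays, by -0.46, which is under the 2-fold limit. Ift122 was 1.64 ± 0.11 higher on day 14 than on day 8 and 1.07 ± 0.11 higher on day 20 than on day 14, and Ift43 rose by 1.49 ± 0.08 on day 20 against day 14. On day 35 against day 0 the 4 differences ran from 2.17 for Ift43 to 2.83 for Ift122.

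The rises of Ttc21b and Ift122 between days 14 and 20 lay near the 2-fold limit. Without day 14 replicate 2 the difference of Ttc21b was 0.95, and without day 14 replicate 1 that of Ift122 was 0.93, both no longer called. The second probe set of Ttc21b gave 0.48 on day 35 against day 0 and was not called. The mean of both gave 1.43 in that comparison, still called, and 0.42 on day 20 against day 14, not called. With the mean of all probe sets Ift122 gave 0.87 in that interval.

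IFT-B was more mixed: 9 of its 15 genes were higher on day 35 than on day 0 and 6 were not called. Ift88, the subunit mutated in the Oak Ridge polycystic kidney mouse with its short cilia, gave 102 and 101 on day 0, 117 and 109 on day 3, 141 and 126 on day 6, 129.5 and 111 on day 8, and 142 and 134 on day 10. From then on it read 324 and 252 on day 14, 402 and 428 on day 18, 411 and 412 on day 20, 357 and 335 on day 30, and 365 and 384 on day 35. Every array from day 14 on stood above every earlier one, with a difference of 1.21 ± 0.13 for day 14 against day 8 (adjusted p = 4.78e-07), and the days from 18 on stayed close together. Ttc26, also called IFT56, had its highest arrays on days 18 and 20. Its arrays read 55.7 and 43.2 on day 0, 51.6 and 46.9 on day 3, 43.7 and 39.6 on day 6, 50.7 and 43.0 on day 8, and 54.4 and 38.9 on day 10, then 186 and 167 on day 14, 279 and 292 on day 18, 280.4 and 297 on day 20, 164 and 184 on day 30, and 199 and 162 on day 35. Day 14 stood 1.75 ± 0.18 above day 8, while day 35 lay -0.66 from day 20, short of the limit. Ift80 gave a rise of 1.55 ± 0.14 on day 14 against day 8 and a difference of -0.80 on day 35 against day 20.

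Ift172, a large subunit tied in Chlamydomonas to the turnaround of trains at the flagellar tip, kept rising to the last day. It gave 119.8 and 126 on day 0, 131 and 166 on day 3, 135 and 103 on day 6, 97.1 and 102 on day 8, and 91.6 and 115 on day 10, and after that 282 and 244 on day 14, 640.1 and 559 on day 18, 735 and 719 on day 20, 2095 and 2113 on day 30, and 2491 and 2476 on day 35. Each of the 3 later intervals was called. Day 14 stood 1.33 ± 0.13 above day 8, day 20 stood 1.44 ± 0.13 above day 14, and day 35 stood 1.76 ± 0.13 above day 20 (adjusted p = 2.26e-09). Its day 20 level was 29.3% of its day 35 level. Ift22, a small GTPase of the complex, rose by 1.24 ± 0.10 and 1.61 ± 0.10 in the first 2 of these intervals and was 3.16 ± 0.10 higher on day 35 than on day 0. Ift57 was 1.04 and Ift74 1.12 higher on day 20 than on day 14, values just past the limit. Without day 14 replicate 2 they were 0.90 and 0.99 and were not called, and Ift57 was 0.59 with the mean of its probe sets. Ift57 was 2.02 and Ift74 1.63 higher on day 35 than on day 0.

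Ift46 rose on day 20 against day 14 by 1.37 ± 0.10, but its difference of 0.996 for day 35 against day 0 fell just short of a call, as did that of Ift27, at 0.98. Ift81 was highest on day 18 and gave -0.04 over the full span, with -0.79 on day 35 against day 20. Ift52 (0.41) and Ift20 (-0.03) were called neither over the full span nor over the 10 days. Ift81 and Ift74 form the tubulin-binding pair of the complex, and over the full span Ift74 was called and Ift81 was not.

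The 3 Ttc30 genes encode near-identical versions of the IFT70 subunit, and their probe sets moved differently. Ttc30a2 and Ttc29 had the largest rises of all members. Ttc30a2 gave 4.55 and 1.83 on day 0, 9.23 and 4.94 on day 3, 6.74 and 8.55 on day 6, 6.47 and 2.16 on day 8, and 10.3 and 0.401 on day 10, and then 249.9 and 225 on day 14, 1333 and 1462 on day 18, 2023 and 1949 on day 20, 1834 and 1743 on day 30, and 1700 and 1678 on day 35. Its day 0 to 10 values lie at the dim end of the arrays, so the size of its difference, 7.28 ± 0.27 on day 35 against day 0 (adjusted p = 3.84e-15), depends on the constant added. So does its order with Ttc29, which gave 7.15 ± 0.28: with the constant at the 40th percentile the differences were 6.11 for Ttc30a2 and 6.13 for Ttc29, and with values floored at the pooled median they were 5.61 and 5.82. Ttc30a2 was 4.36 ± 0.27 higher on day 14 than on day 8 and 3.03 ± 0.27 higher on day 20 than on day 14. Ttc30a1 gave 64.3 and 69.1 on day 0, 62.4 and 48.4 on day 8, 322 and 259.6 on day 14, 496 and 514 on day 20, and 289 and 349 on day 35, a rise of 2.24 ± 0.17 on day 14 against day 8 and 2.13 ± 0.17 over the full span. Ttc30b read 91.5 and 104 on day 0, 92.4 and 91.1 on day 8, 104 and 119 on day 14, 102 and 107 on day 20, and 77.2 and 95.0 on day 35, with a difference of -0.17 ± 0.22 and no call over the 10 days (adjusted p of the F test = 0.166). The probe set of Ttc30a2 is of the kind marked as able to bind other transcripts, as are those of Ift27 and Ttc4 and, with another suffix, those of Bbs4, Bbs10, Ift81, Ift122 and Ttc14, and an array cannot assign the signal of near-identical copies with certainty. Ttc30a2 carries an exact X-box match printed among the promoters, the window of Ttc30a1 held none, and that of Ttc30b was not searched.

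**Figure D2:**
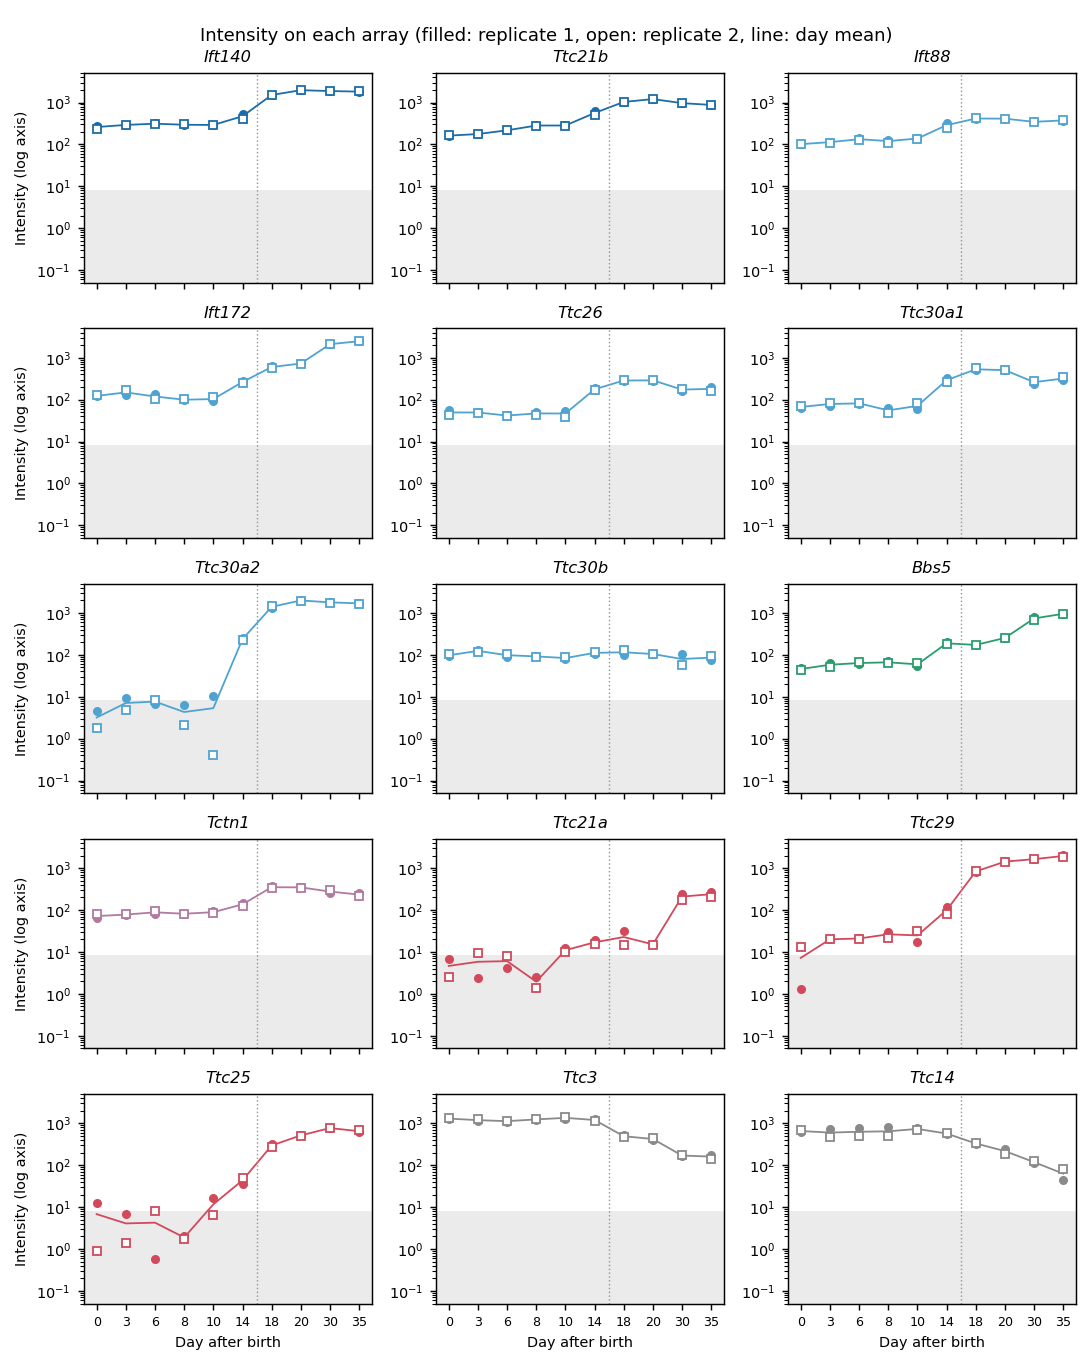
Intensity on each array by day after birth (days evenly spaced, log axis) for 15 members; filled circles are replicate 1, open squares replicate 2 and the line joins day means. The grey band lies below the constant added before the log, 7.83, the dotted line marks the shift in low values between days 14 and 18, and Ttc30a2 lies in or near the band up to day 10 and at 225 or above from day 14, while Ttc30b lies between 56.5 and 132 on every array.

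In the BBSome, 4 of 7 genes were higher on day 35 than on day 0 and none was lower. Bbs5, a subunit with lipid-binding folds, had 2 separate steps past the limit. Its arrays gave 48.7 and 43.0 on day 0, 64.6 and 51.4 on day 3, 60.8 and 66.7 on day 6, 69.9 and 62.7 on day 8, and 54.7 and 63.8 on day 10, then 199 and 178 on day 14, 175 and 169.7 on day 18, 254 and 252 on day 20, 796 and 683 on day 30, and 966 and 941 on day 35. The first step was 1.40 ± 0.15 on day 14 against day 8 and the second, 1.88 ± 0.15, came on day 35 against day 20 (adjusted p = 3.09e-09). With smaller rises, not called, on day 8 against day 0 and on day 20 against day 14, Bbs5 was 4.17 ± 0.15 higher on day 35 than on day 0. Its day 20 level was 26.6% of its day 35 level. Bbs7 rose by 1.36 ± 0.13 and 1.24 ± 0.13 in the 2 middle intervals, and the mean of its probe sets gave 0.61 and 0.85, neither called. Bbs1 was 1.40 ± 0.28 higher on day 20 than on day 14, or 0.91 without day 14 replicate 2, and Bbs9 climbed slowly to 1.95 ± 0.16 on day 35 against day 0.

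Bbs2 and Bbs4 were called in none of the 5 comparisons. Bbs2 gave 78.7 and 49.2 on day 0, 49.0 and 57.7 on day 3, 55.4 and 85.8 on day 6, 82.1 and 65.8 on day 8, and 115 and 91.6 on day 10, and later 202 and 112 on day 14, 191 and 147 on day 18, 128 and 176 on day 20, 147 and 169 on day 30, and 140 and 116 on day 35. The arrays of a day differed widely, most of all on day 14, and its difference of 0.94 ± 0.27 for day 35 against day 0 fell short of a call. Bbs4 gave 126 and 99.5 on day 0, 119 and 118 on day 3, 99.1 and 115 on day 6, 103 and 108 on day 8, and 128 and 121 on day 10, then 145 and 121 on day 14, 143 and 132 on day 18, 223 and 213 on day 20, 138 and 161 on day 30, and 163 and 159 on day 35. The day 20 arrays were its highest. On the log2 scale with the constant added, the highest and lowest day means of Bbs4 lay 0.996 apart, just short of the limit. It was therefore not called over the 10 days. Ttc8, the BBSome subunit also called BBS8, was -0.99 ± 0.14 on day 35 against day 0, just short of a fall by the limit used. The subunits of 1 complex thus ran from -0.99 to 4.17 over the same span.

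Of the chaperonin-like pair, Bbs10 rose by 1.95 ± 0.21 on day 20 against day 14 and Bbs12, at -0.28 ± 0.27, was not called. Over the full span Bbs10 was 2.47 ± 0.21 (adjusted p = 2.32e-09) and Bbs12 0.00 ± 0.27. Bbs12 was not called over the 10 days either. A second probe set of Bbs10 gave 1.12 over the full span and was called higher too, and the mean of both gave 1.06 on day 20 against day 14.

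Tctn1 and Tctn2 rose over the full span and Tctn3 was not called. Tctn1, which the transition zone needs for Hedgehog signalling in mouse embryos, gave 64.4 and 79.1 on day 0, 75.1 and 80.7 on day 3, 79.4 and 97.1 on day 6, 81.1 and 82.1 on day 8, and 93.2 and 84.5 on day 10, and then 151 and 123 on day 14, 371 and 331 on day 18, 358 and 338 on day 20, 252 and 299.7 on day 30, and 249.6 and 219 on day 35. Its highest arrays were those of days 18 and 20, with 1.31 ± 0.16 on day 20 against day 14 (adjusted p = 7.78e-07) and -0.56 on day 35 against day 20. Tctn2 climbed in small steps, none of them past the limit, to 2.10 ± 0.17 on day 35 against day 0. Tctn3 reached 0.49.

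**Figure D3:**
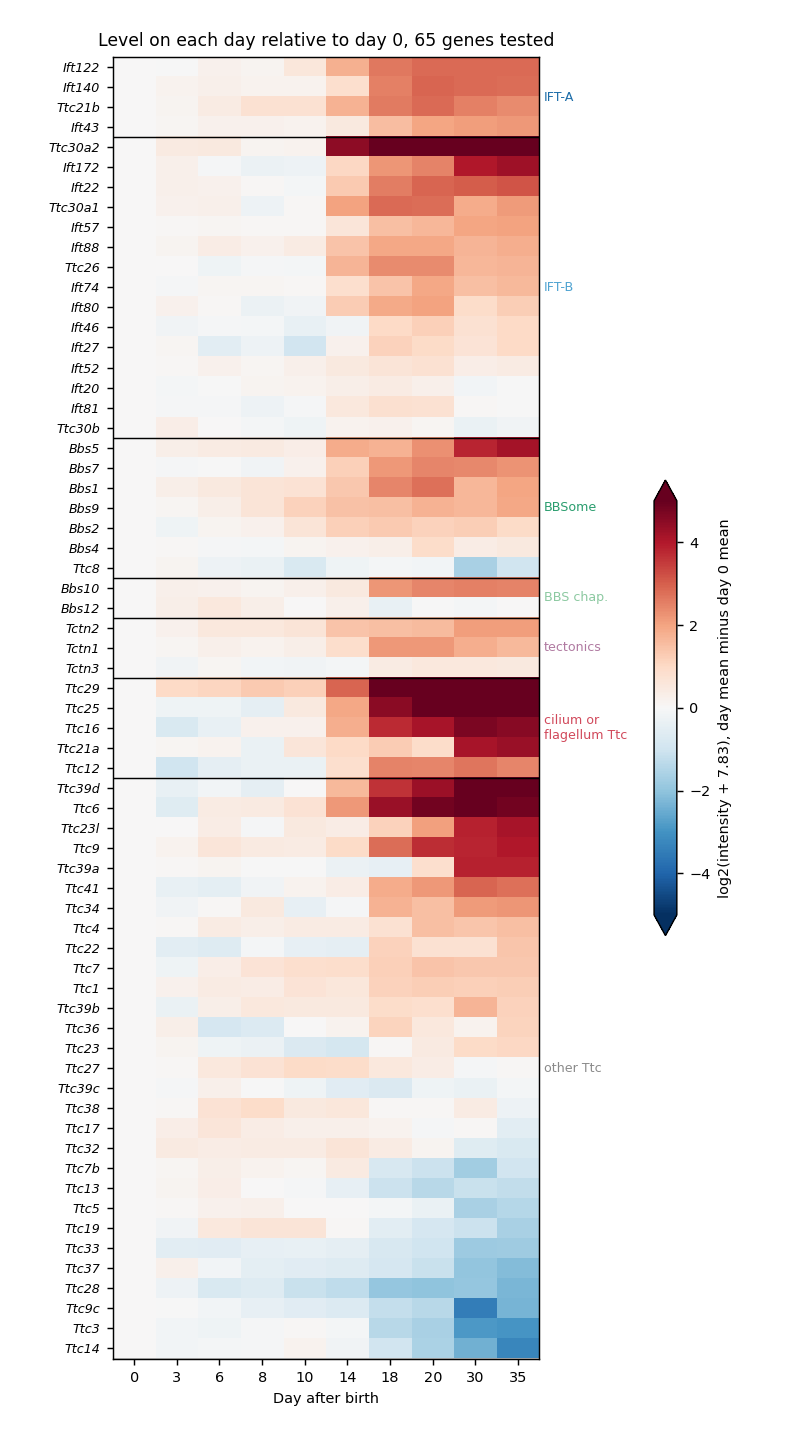
Heat map of the 65 tested members, in rows by role and within a role by their day 35 difference, over the 10 days in columns; colour gives the day mean of log2(intensity + 7.83) minus the day 0 mean, red higher and blue lower, and values past 5 take the end colour. The 4 IFT-A rows are pale until day 10 and red from day 18, and Bbs5, Ift172, Ttc21a, Ttc23l and Ttc39a darken again after day 20.

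The 5 Ttc genes outside the transport complexes that were listed by hand for cilia or flagella all rose, by 2.43 to 7.15 on day 35 against day 0. Ttc29, an axonemal protein needed for the sperm tail in mice and humans, gave 1.28 and 13.2 on day 0, 20.0 and 20.0 on day 3, 21.5 and 20.4 on day 6, 30.7 and 22.0 on day 8, and 17.3 and 32.3 on day 10. It then gave 119 and 78.9 on day 14, 828 and 845 on day 18, 1486 and 1374 on day 20, 1636 and 1645 on day 30, and 2034 and 1872 on day 35. Its rise was 3.77 ± 0.28 on day 20 against day 14 (adjusted p = 1.15e-09) and 7.15 ± 0.28 over the full span. It was also the member called on day 8 against day 0, at 1.29 ± 0.28, but the 2 day 0 arrays were 1.28 and 13.2, and without day 0 replicate 1 the difference was 0.69 and not called. With a larger constant, the 40th percentile of all values, it was 0.76.

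Ttc25, which docks the outer dynein arms on the axoneme, gave 12.7 and 0.908 on day 0, 6.75 and 1.43 on day 3, 0.585 and 7.94 on day 6, 2.03 and 1.75 on day 8, and 16.9 and 6.51 on day 10. On later days it gave 36.5 and 51.0 on day 14, 317 and 275 on day 18, 522 and 511 on day 20, 775 and 766 on day 30, and 609 and 693 on day 35. Its 2 arrays were far apart while dim and close together once bright, with rises of 2.39 ± 0.37 on day 14 against day 8 and 3.36 ± 0.37 on day 20 against day 14. With values under the pooled median set to that median, the first of these was 0.32 and not called. Ttc16 rose by 1.59 ± 0.28 and 2.31 ± 0.28 in the same intervals, or 0.93 in the first with that floor. Ttc12, a factor in the assembly of dynein arms, rose by 1.62 ± 0.43 on day 20 against day 14.

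Ttc21a, the paralog of Ttc21b that sperm tails need in mice and humans, took its largest step after day 20. It gave 6.79 and 2.47 on day 0, 2.39 and 9.25 on day 3, 4.15 and 7.92 on day 6, 2.54 and 1.36 on day 8, and 12.2 and 9.86 on day 10, then 18.8 and 15.1 on day 14, 30.9 and 14.5 on day 18, 15.8 and 14.6 on day 20, 247 and 172 on day 30, and 270.2 and 209 on day 35. Up to day 20 no array passed 30.9, and both arrays of days 30 and 35 stood at 172 or above. Day 35 was 3.42 ± 0.36 above day 20 (adjusted p = 2.38e-07), whereas Ttc21b gave -0.46 in that interval. The call of Ttc21a on day 14 against day 8, 1.34, ended when day 8 replicate 2 (1.25) or day 14 replicate 1 (1.23) was left out, and the difference was 0 once values were floored at the pooled median.

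Among the other 29 tested Ttc genes, 13 (44.8%) were higher and 9 (31%) lower on day 35 than on day 0, against 27.3% and 27.6% of all genes. The share that fell was near that of all genes. The largest rises were those of Ttc39d (5.31 ± 0.37), Ttc6 (4.81 ± 0.37), Ttc23l (4.11 ± 0.41), Ttc9 (3.99 ± 0.32) and Ttc39a (3.83 ± 0.22). Ttc39d, Ttc6 and Ttc9 took their largest step between days 14 and 20, of 2.63, 2.65 and 2.72. On day 14 against day 8, Ttc39d (2.07) and Ttc6 (1.72) were called too, but with the floor at the pooled median they gave 0.10 and 0.76. Ttc39a and Ttc23l rose mainly after day 20, by 2.98 ± 0.22 and 2.08 ± 0.41. Ttc39a was 1.14 higher on day 20 than on day 14, or 0.91 without day 14 replicate 1. The difference of Ttc39d on day 35 against day 20, 1.04, was not called when any of the 4 arrays of those days was left out, with values of 0.99 to 1.09.

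Smaller rises on day 35 against day 0 were those of Ttc41 (2.76), Ttc34 (2.22), the co-chaperones Ttc4 (1.51) and Ttc1 (1.21), Ttc7 (1.35) and Ttc22 (1.38). Ttc39b (1.15) and Ttc23 (1.03) completed the 13. Without day 0 replicate 2 the values were 0.67 for Ttc22, 0.92 for Ttc23 and 0.82 for Ttc39b, and none of these was called. Ttc22 was also lost without day 35 replicate 1, at 0.93, and Ttc39b without day 35 replicate 2, at 0.97. With values floored at the pooled median Ttc22 gave 0.21 and Ttc39b 0.68, and neither was called. With that floor Ttc22 gave 0 on day 20 against day 14. On day 20 against day 14, Ttc4 was 1.08, or 0.97 without day 14 replicate 2, and the call of Ttc22 was lost without any of 3 arrays, at 0.97 to 1.32. The 7 other tested Ttc genes with no call on day 35 against day 0 were Ttc36 (1.11), Ttc27 (0.05), Ttc39c (-0.09), Ttc38 (-0.25), Ttc17 (-0.54), Ttc32 (-0.77) and Ttc7b (-0.94).

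The 9 members that fell were all Ttc genes outside the transport complexes, and the values that follow describe them one by one. Ttc14 and Ttc3 had the largest falls. Ttc14 gave 615 and 697 on day 0, 732 and 474 on day 3, 762 and 498 on day 6, 798 and 494 on day 8, and 768 and 705 on day 10, and afterwards 554 and 589 on day 14, 313 and 349 on day 18, 246 and 190.3 on day 20, 111 and 126 on day 30, and 44.2 and 81.8 on day 35. The 2 arrays differed on days 3 to 8, but every array from day 18 on was below every earlier one, and day 35 was -3.28 ± 0.25 against day 0 (adjusted p = 2.98e-10). Other probe sets of Ttc14 disagreed: 4 were called lower, with -1.72 to -2.57, and 5 were not called, with -0.98 to 0.53, so the mean of its probe sets gave -1.34. Ttc3, a ubiquitin ligase, gave 1271 and 1327 on day 0, 1132 and 1253 on day 3, 1101 and 1155 on day 6, 1217 and 1268 on day 8, and 1295 and 1414 on day 10, followed by 1259 and 1146 on day 14, 522 and 465 on day 18, 394 and 453 on day 20, 166 and 175 on day 30, and 177 and 145 on day 35. It was level to day 14, fell to 522 and 465 on day 18, and was -2.96 ± 0.10 on day 35 against day 0. For Ttc3, 5 of the 6 other probe sets were called lower as well, and the sixth gave -0.43.

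The other members that were lower on day 35 than on day 0 were Ttc9c (-2.32 ± 0.18), Ttc28 (-2.27 ± 0.19), Ttc37 (-2.16 ± 0.25), Ttc33 (-1.80 ± 0.14), Ttc19 (-1.61 ± 0.26), Ttc5 (-1.41 ± 0.20) and Ttc13 (-1.25 ± 0.16). Ttc37 belongs to the SKI complex of RNA decay, Ttc19 to the assembly of mitochondrial complex III, and Ttc5 is a cofactor of the acetyltransferase p300. With the mean of all probe sets Ttc37 gave -0.89, Ttc33 -0.55 and Ttc5 -0.32, none called, and Ttc9c gave -1.28, still called. Ttc13 gave -0.97 after quantile normalization and was not called. Without day 35 replicate 1, Ttc19 gave -0.97.

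By interval, Ttc14 (-1.37 ± 0.25), Ttc3 (-1.49 ± 0.10) and Ttc7b (-1.52 ± 0.37), a scaffold of a lipid kinase, were lower on day 20 than on day 14. Without day 14 replicate 2 the count of such members was 5 in place of 3. On day 35 against day 20, Ttc14 (-1.71 ± 0.25), Ttc3 (-1.36 ± 0.10), Ttc5 (-1.07 ± 0.20) and Ttc37 (-1.05 ± 0.25) were lower. None of these 4 was called with the mean of all probe sets, which gave -0.67, -0.60, -0.71 and -0.52. Ttc5 and Ttc37 were also lost without day 20 replicate 1, at -0.97 and -0.99, and without day 35 replicate 2, at -0.74 and -0.69. The falls of Ttc7b and Ttc14 on day 20 against day 14 crossed the shift in low values; with the mean of all probe sets that of Ttc14 was -0.69.

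**Figure D4:**
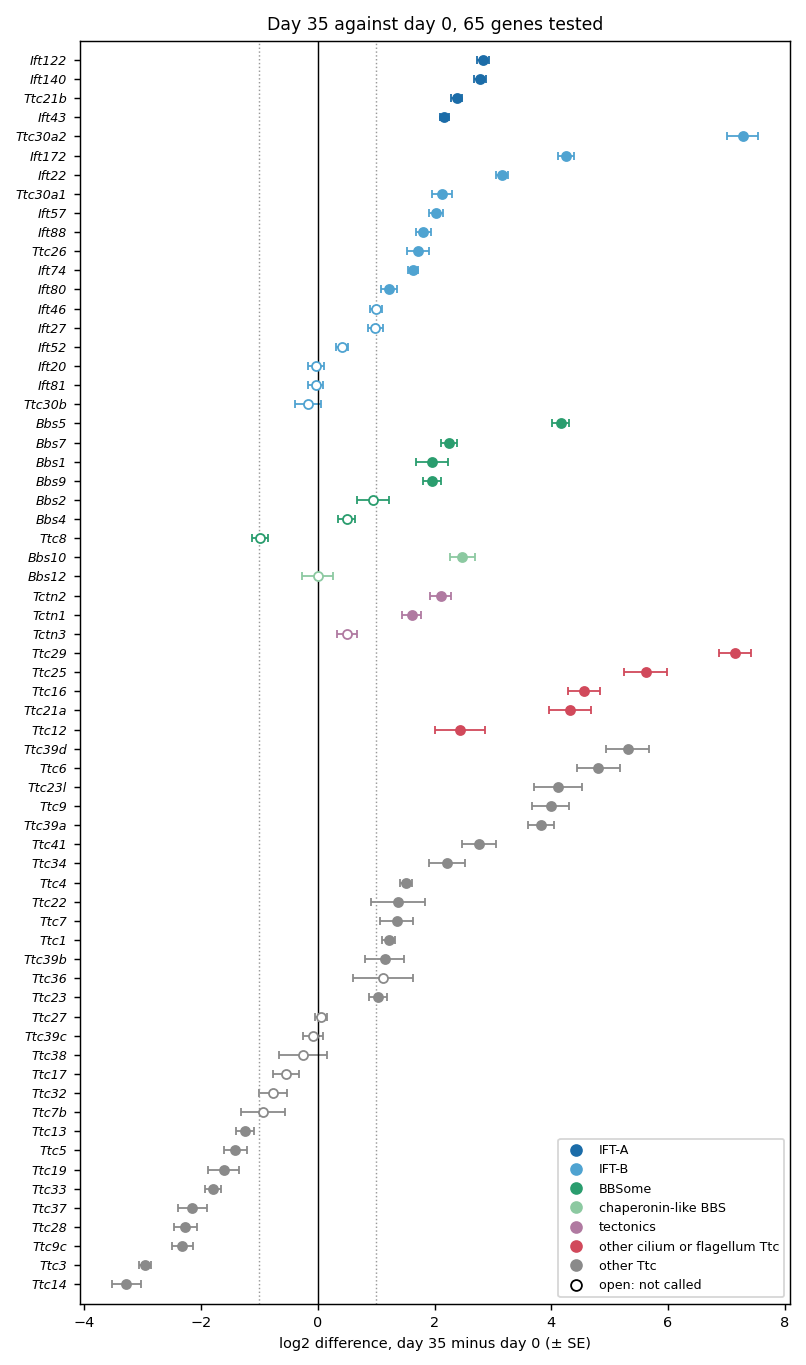
Log2 difference of day 35 minus day 0 for the 65 tested members, grouped and coloured by role; bars are ± 1 standard error from limma, filled points were called and open points were not, and dotted lines mark a difference of 1 in size. Every point of the 4 IFT-A genes lies between 2.17 and 2.83, IFT-B runs from -0.17 to 7.28, and the 9 filled points on the left are Ttc genes outside the complexes.

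The members peaked at different ages. Of the 57 members called over the 10 days, 12 (21.1%) had their highest mean on days 0 to 10, 21 (36.8%) on days 14 to 20 and 24 (42.1%) on days 30 or 35. Among all genes called, these shares were 44.3%, 20.4% and 35.3%. The 25 called complex members peaked mostly on days 14 to 20, with 16 genes, against 8 on days 30 or 35 and 1 before, whereas 16 of the 32 other Ttc genes peaked on days 30 or 35 and 11 on days 0 to 10. Of the 38 members higher on day 35 than on day 0, 22 took their largest of the 4 steps on day 20 against day 14, 9 on day 14 against day 8, 5 on day 35 against day 20 and 2 on day 8 against day 0. The largest step was not counted over all genes. Day 20 against day 14 also had the most rises among all genes, 18.2%, against 5.48%, 8.5% and 3.29% in the other intervals in that order. The 5 with the late step were Bbs5, Ift172, Ttc21a, Ttc23l and Ttc39a. All 9 with the step on day 14 against day 8 were complex members. The 8 members not called over the 10 days were Bbs4, Bbs12, Ift20, Ift52, Ttc30b, Tctn3, Ttc38 and Ttc39c, whose F tests gave adjusted p of 2.38e-05 for Ift52 to 0.176 for Ttc38.

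Marker genes of germ cells moved over the same days. The summed intensity of 5 spermatocyte markers (Sycp3, Spo11, Hormad1, Piwil1, Ldhc) was 1908 to 1940.3 on day 10, 7649.6 to 7794 on day 14, 14883 to 15427 on day 20 and 12275 to 13429 on day 35. Most of the day 35 sum was Ldhc, with 9271.5 and 8189. On day 35 against day 20 the median difference of the 5 markers was -0.54, with 1 called lower and none called higher. That of 5 round spermatid markers was 193 to 216 on day 14, 1449 to 1496 on day 20 and 7836 to 8312 on day 35. For 5 elongating spermatid markers it was 265 to 305 on day 20 and 39881 to 45206 on day 35. In the Sertoli cell and spermatogonial lists, markers were called in both directions. Sums over 5 Sertoli cell markers, most of it Clu, were 4356 to 4678 on day 35 and 7762 to 8484 on day 0, with 1 marker (Rhox5) called higher and 3 (Amh, Sox9, Wt1) called lower on day 35. Over 3 peritubular markers the sums were 1665 to 1802 on day 35 and 3788 to 3832 on day 0, with 2 called lower. Those over 5 spermatogonial markers were 462 to 490.4 on day 35 and 1139 to 1141 on day 0, with 1 (Stra8) called higher and 3 called lower. Leydig cell markers (4 of 5 measured) summed to 3005 to 4106 on day 35 and 4794 to 4932 on day 0, with 2 called lower. The sums of 3 macrophage markers, none of them called, were 366 to 425 on day 35 and 231 to 235 on day 0. Ciliated cells line the efferent ducts, whose markers with those of the epididymis (4 of 5 measured) summed to 79.9 to 84.1 on day 35 and 42.7 to 61.7 on day 0. All 4 were dim, with no intensity above 48.42 (Pax8), and this span crosses the shift in low values. Only Lcn5 and Pax8 passed the filter, with 1 of the 2 called higher, while Adam7 had means of 17.95 on day 0 and 4.94 on day 35. The part of any of these cell types in the members' differences was not tested.

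Ciliary genes under other symbols also moved in both directions. On day 35 against day 0, where 27.3% of all genes were higher and 27.6% lower, 9 of 14 tested IFT subunits and motors were higher and 1 was lower. Kif17, a kinesin, was 4.59 ± 0.40 and Kif3b, of the motor that drives IFT-B, 3.32 ± 0.23, while Tulp3, the IFT-A adaptor for membrane cargo, was -2.68 ± 0.20. Among 9 tested genes listed as BBS partners 4 were higher and 2 lower, with Lztfl1, which controls the entry of the BBSome to cilia, at 2.40 ± 0.12, and Wdpcp at 1.98 ± 0.20. Of 15 transition zone genes 5 were higher and 2 lower, with B9d1 at 2.61 ± 0.16 and Cc2d2a at -2.46 ± 0.38. The higher share of the transition zone genes and the lower share of the BBS partners were near those of all genes. Of the 5 RFX and FOXJ1 regulators of ciliary genes 4 were higher and none was lower: Rfx2 (5.08 ± 0.37), Rfx4 (4.21 ± 0.39), Foxj1 (3.23 ± 0.35) and Rfx3 (3.14 ± 0.31). Rfx1 gave 0.99 ± 0.16.

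The regulators rose on different days. Rfx2 and Rfx4 were 2.03 and 3.10 higher on day 14 than on day 8, and 1.88 and 1.43 higher on day 20 than on day 14. Rfx3 was 2.13 higher on day 35 than on day 20, and Foxj1 rose by 1.53 on day 20 against day 14 and by 1.52 on day 35 against day 20. Of the 11 tested members with an X-box match in the promoter, 10 were higher on day 35 than on day 0 and none was lower, with a median of 2.10. Of the 44 tested members with a promoter and no match, 24 were higher and 8 lower, with a median of 1.28. Of all genes tested, 27.3% were higher and 27.6% lower. The 2 sets differ in role. The matches lay in 4 IFT-B, 3 BBSome and 2 tectonic genes and, outside the complexes, in Ttc23l and Ttc29, while no complex member was called lower. Genes with and without a match occur within a role: 4 of 12 IFT-B, 3 of 7 BBSome and 2 of 3 tectonic genes with a promoter had one. The calls were not compared within a role, so these counts do not separate match from role. Calls of other genes with a match were not counted. These counts are a description of few genes, and binding of the promoters was not measured.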

How the data were processed

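Total RNA of mouse testis was measured on 20 single-channel arrays, 2 on each of 10 days. Per the labels, the RNA came from a Trizol extraction and carried biotin added in a 3′ amplification. Each probe set of an array has 1 linear intensity, deposited by the authors, and the 2% trimmed mean is equal on every array. The summarization software is not given in the sources, and detection calls were not used. Of 45101 probe sets, 34945 non-control ones carry 1 gene symbol in the platform annotation.

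The intensities were transformed as log2(intensity + 7.83) with no further scaling. Each gene was read from its probe set with the highest mean. Day was a factor of 10 levels in limma 3.58.1 (R 4.3.3), with lmFit and eBayes with a trend on all 20 arrays, 10 residual and 8.88 prior degrees of freedom. P-values were two-sided and adjusted over 16429 genes. The script was tested on simulated data. Promoters came from RefSeq, matched by gene ID. Roles, other gene lists and cell markers were written by hand, and the members and lists were chosen with earlier results of these data known. Every member of the complexes is named, the largest changes of each comparison among the Ttc genes, and up to 3 called genes of each other list. Alternatives changed the scaling, constant, filter, probe set choice, trend, weights or threshold, added a replicate block or left out 1 array. The use of every probe set of a member on its own was added after the data were seen.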

Additional observations from a re-analysis of the deposited data

How the results depend on the processing

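The main settings gave 105 called differences of members over the 5 comparisons. None reversed under the 12 alternatives or when each of the 20 arrays was left out in turn. The arrays of days 3, 6, 10, 18 and 30 are in none of the 5 comparisons, so leaving them out could not change a difference. Nor could the settings that alter only the filter, the trend or the threshold. Calls were lost with quantile normalization (5), a common median (2), a constant at the 5th percentile (1) or the 40th (11), a floor at the pooled median (11, of which 4 became 0), the mean of all probe sets (13), array weights (1) and an adjusted p under 0.01 (3). At most 6 were lost without any 1 array. Members higher on day 8 than on day 0 numbered 0 with the floor and 0 with the larger constant, and 1 to 2 without 1 array, with 2 without day 0 replicate 2. Members lower on day 35 than on day 20 numbered 2 with the constant at the 40th percentile and 0 with the mean of all probe sets, and 2 to 6 without 1 array. Those lower on day 14 than on day 8 numbered 0 to 1, and those lower on day 20 than on day 14 numbered 3 to 5, without 1 array. The causes were not tested. Where a called member had other tested probe sets, an alternative added after the data were seen, 4 of 4 of these were called the same way on day 14 against day 8, 12 of 24 on day 20 against day 14, 3 of 15 on day 35 against day 20 and 28 of 43 on day 35 against day 0. The others were not called, and none was called the opposite way. The same-numbered arrays of different days did not deviate together (r of -0.02 to 0.06 over 45 pairs of days), and with the replicate block 57 members changed over the 10 days and no call was lost. Dim probe sets, such as those of Ttc22, Ttc23l and Ttc39d on early days, limit the size of a difference.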
